A study of Homo sapiens with 6 samples.

Results

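The 38 genes described here encode the carnitine shuttle and the enzymes of mitochondrial and peroxisomal fatty acid beta-oxidation, and they were chosen by name, 38 of the 47470 genes listed in the count files. RNA-seq was performed in HEK293T cells, an established line derived from human embryonic kidney and expressing SV40 large T antigen, with 3 libraries of untreated cells labelled wild type and 3 libraries of cells exposed to VPA (valproic acid, which inhibits histone deacetylases) at 1 mM for 1 day. The paper describes no vehicle for the untreated cells. Nothing in the labels says that the 3 libraries of a condition came from separate cultures, so p-values measure only the spread between these libraries. Totals on genes lay between 18622267 and 18828495 counts per library.

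Fatty acids longer than the medium-chain class enter mitochondria as carnitine esters. CPT1 at the outer membrane makes the ester, the carrier SLC25A20 moves it across the inner membrane, and CPT2 returns the acyl group to coenzyme A. Acyl-CoA dehydrogenases then open each round of beta-oxidation and pass electrons to the electron transfer flavoprotein, and hydratases, hydroxyacyl dehydrogenases and thiolases complete the round. Peroxisomes hold a parallel set of enzymes for very long and branched chains. VPA is itself a branched short-chain fatty acid that is bound to coenzyme A and carnitine, and impaired beta-oxidation and low carnitine are known features of its toxicity in the liver.

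The markers of the line, KRT8, KRT18, VIM, PAX2 and NEFM, had counts in all 6 libraries. PAX2 lay between 29.3 and 30.0 normalised read counts in untreated and between 140.5 and 142.7 in VPA-treated libraries, KRT8, KRT18 and NEFM were also higher and VIM was lower in every VPA-treated library. PTPRC, ALB and PECAM1, markers of leukocytes, hepatocytes and endothelium, had 12, 2 and 5 counts in total, those of PTPRC all in VPA-treated libraries. The muscle marker DES and the astrocyte marker GFAP were low, at most 9.41 and 15.7 normalised read counts in untreated and at most 38.3 and 45.0 in VPA-treated libraries. The part of these markers in the results below was not tested. All 1437 listed genes of chromosome X had a count of 0 in every library and could not be compared.

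CPT1A was the 1 member whose increase passed both thresholds used in the paper, namely a change beyond 1 on the log2 scale in either direction with an adjusted p below 0.05. Its promoter is shown beside that of CPT1C, the other CPT1 gene that rose. Each window runs from 250 bases before to 50 after the start of the MANE Select transcript, the agreed reference transcript of a gene. CPT1A lies on the minus strand of chromosome 11 and its window is chr11:68841867-68842166, 2361 bases inside the outermost RefSeq start. The CPT1C window is chr19:49690866-49691165 on the plus strand. The sequences are from hg38 and are written 5′ to 3′ on the strand of the gene, with the GC box (GGGCGG) and the CCAAT box (CCAAT) in capitals on either strand.
CPT1A: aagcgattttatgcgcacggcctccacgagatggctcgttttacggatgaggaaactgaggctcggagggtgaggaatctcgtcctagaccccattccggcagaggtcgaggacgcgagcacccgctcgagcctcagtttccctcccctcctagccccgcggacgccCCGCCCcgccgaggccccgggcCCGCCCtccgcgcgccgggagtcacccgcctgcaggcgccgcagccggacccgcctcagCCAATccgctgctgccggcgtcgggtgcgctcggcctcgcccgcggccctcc
CPT1C: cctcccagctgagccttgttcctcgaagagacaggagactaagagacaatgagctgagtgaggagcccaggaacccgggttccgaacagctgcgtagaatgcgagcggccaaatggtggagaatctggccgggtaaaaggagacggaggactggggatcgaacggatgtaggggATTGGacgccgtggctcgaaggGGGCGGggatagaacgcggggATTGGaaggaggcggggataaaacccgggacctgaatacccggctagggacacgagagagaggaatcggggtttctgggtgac

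The CPT1A window held 2 GC boxes, 1 CCAAT box and 40 CpG dinucleotides, and the CPT1C window 1 GC box, 2 CCAAT boxes and 21 CpG dinucleotides. Promoters could be read for 29 of the 38 members and not for CPT1B, CRAT, ACAD11, DECR1, ACOX2, EHHADH, ACAA1, DECR2 and ETFDH. A GC box, which SP and KLF factors bind, was present in 26 of the 29 windows (89.7%) against 62.8% of 15106 promoters read in the same way. A CCAAT box was found in 10 (34.5% against 36.9%), the ETS core CGGAAG in 8 (27.6% against 26.7%), the E-box CACGTG in 1 and the nuclear receptor half-site AGGTCA in 1, the last in ACAD10 (3.45% against 10.9%). No member window held the TATA box TATAAA, which 9.35% of all promoters did. With windows at RefSeq starts 1 of 29 members held it, 3.45% against 12% of promoters. With 67.7% GC and 27 CpG dinucleotides in the median, the member windows stood close to the medians of 64.0% and 24 over all promoters. HADHA and HADHB, whose products form the mitochondrial trifunctional protein, start 307 bases apart on opposite strands of chromosome 2. These matches describe the letters of the windows only.

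Levels between genes were compared as normalised read count per kilobase of the MANE Select transcript. ECHS1, HADHA and ACAT1 were highest in untreated cells, with 2130 ± 54.2, 1878 ± 123 and 1931 ± 208 (SD, n = 3 each), and the SD of ACAT1 spans the gaps between them. ECHS1 is the short-chain enoyl-CoA hydratase and ACAT1 the mitochondrial acetoacetyl-CoA thiolase. The flavoprotein subunits ETFA and ETFB followed at 1731 ± 86.4 and 1462 ± 67.9, the peroxisomal isomerase ECI2 lay between them at 1500 ± 150, and the peroxisomal HSD17B4 stood at 1282 ± 101. The shuttle was lower, from 342.3 ± 17.0 for SLC25A20 and 310.1 ± 11.0 for CPT2 to 89.5 ± 6.10 for CROT and 47.7 ± 3.45 for CPT1C. CPT1A had 128.9 ± 8.75 in untreated and 294.4 ± 5.71 in VPA-treated cells, which brought it from a level below CRAT and SLC22A5 to one above both and near that of CPT2. CPT1B and ACOX2 were lowest at 3.08 ± 3.29 and 1.21 ± 0.687. The members together took 0.221%, 0.231% and 0.238% of the counts on genes in untreated and 0.254%, 0.261% and 0.267% in VPA-treated libraries. These shares rest on raw library totals and not on normalised read counts. Scaled by library totals, the changes of all 15298 tested genes centred on 0.14 (median, log2), against 0.0058 in the main fit. The higher shares in VPA-treated libraries are to be read against that shift of all genes.

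**Figure D1:**
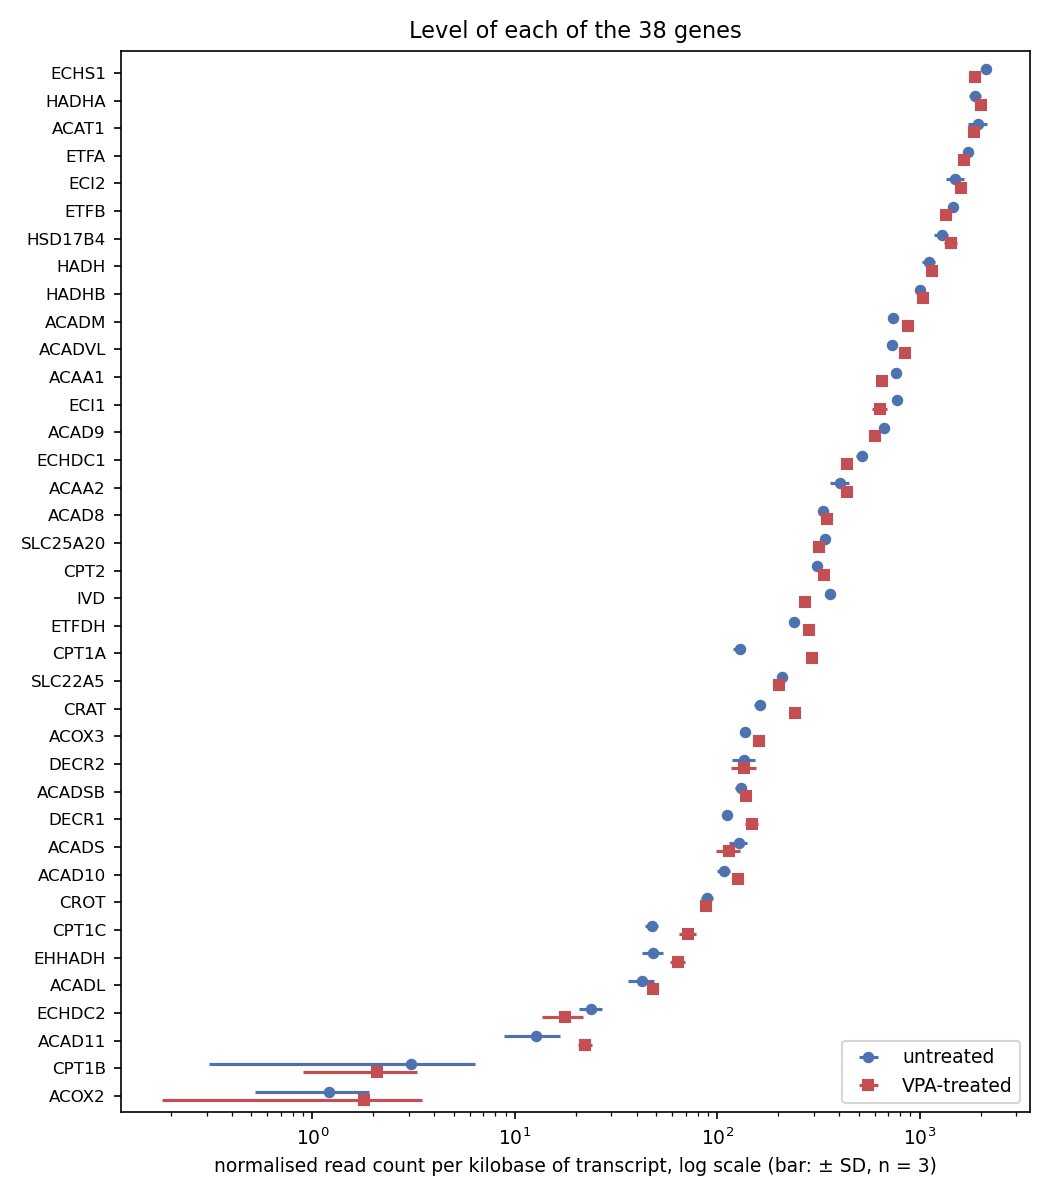
Level of each of the 38 genes as normalised read count per kilobase of transcript on a log axis, with untreated cells as circles and VPA-treated cells as squares (mean ± SD, n = 3; lower bars that would reach 0 are shortened). CPT1A shows the widest gap among the genes above 20, from 128.9 to 294.4, and most other pairs of points lie close together.

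Of the 38 genes 36 passed the filter on low counts and were tested among 15298 genes. CPT1A was up-regulated, 1 of 36 (2.78%) against 12.0% of all tested genes, and 0 were down-regulated, against 0.503%. By an unadjusted p under 0.05, and by DESeq2, the number down-regulated was also 0. By adjusted p alone, 13 members were higher (36.1% against 32.9% of all tested genes) and 7 lower (19.4% against 30.0%) in VPA-treated cells. Library totals as the scaling changed this split to 21 higher and 2 lower, under which the 15298 tested genes had a median of 0.14 on the log2 scale in place of 0.0058. Relative to all tested genes, the median of the members was higher by 0.065, which rescaling cannot change, and by 0.010 without untreated replicate 1. All VPA-treated libraries lay above all untreated ones in 13 members (36.1% against 34.8%) and below in 8 (22.2% against 31.0%). These shares over the members were close to the background or below it, and the individual genes differed as follows. The counts by role rest on 2 to 10 tested genes each and are to be read against the same 32.9% higher and 30.0% lower. In bulk RNA, fewer cells that express a gene and less RNA per cell cannot be told apart.

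**Figure D2:**
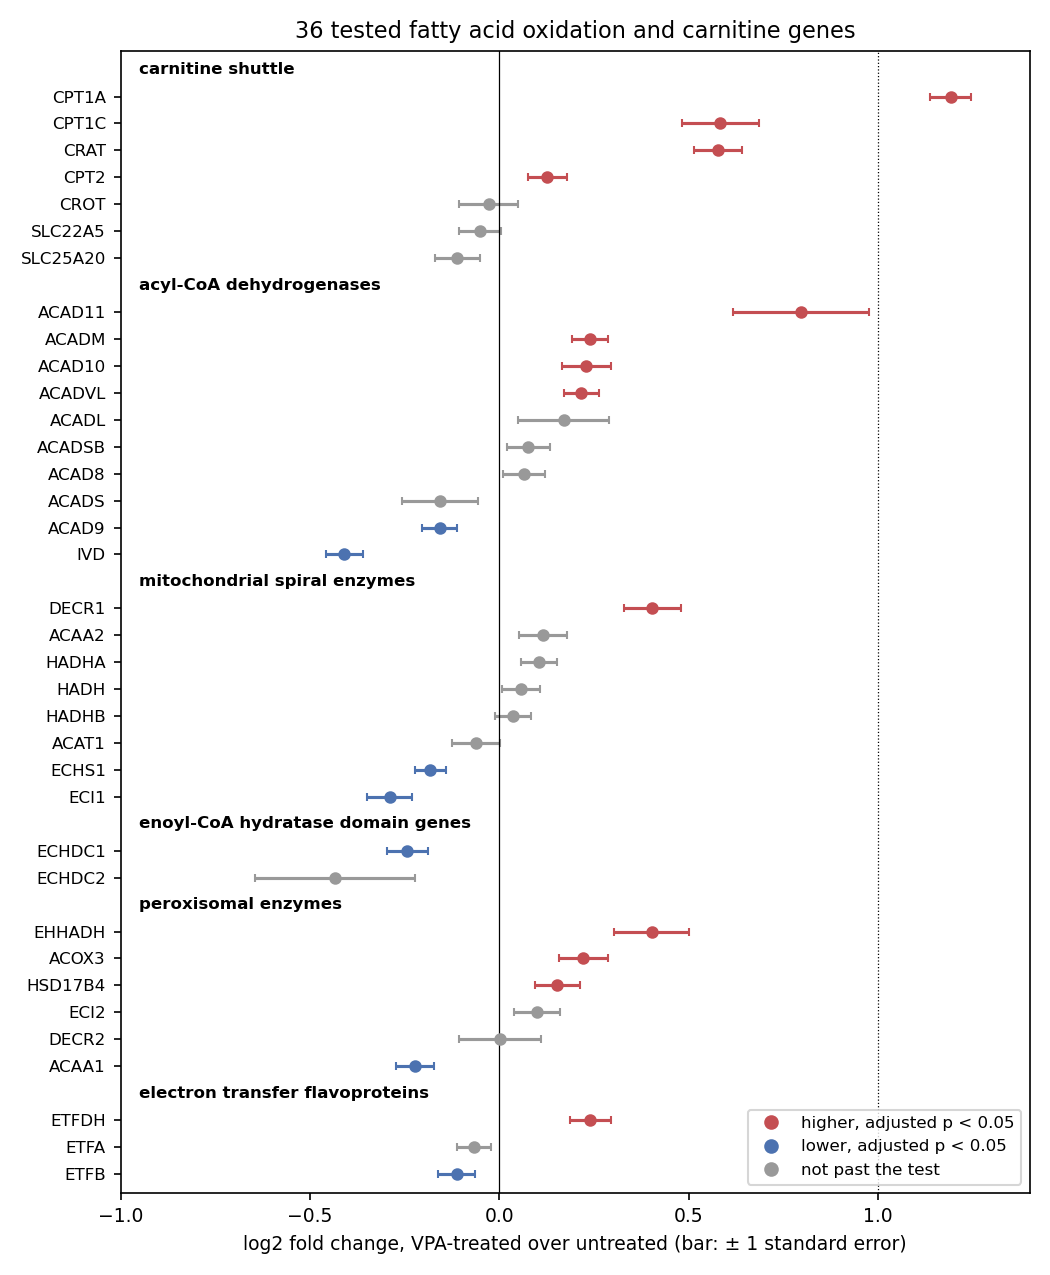
Log2 fold change of each of the 36 tested members with its standard error, grouped by role, with genes past an adjusted p of 0.05 in red (higher) or blue (lower), the rest in grey and a dotted line at 1. CPT1A lies beyond 1 at 1.19, and the other 35 genes lie between -0.43 and 0.80.

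In the carnitine shuttle 4 of 7 tested genes rose, CPT1A, CPT1C, CRAT and CPT2, and the other 3 did not pass the test. CPT1A, the liver isoform and rate-limiting step of mitochondrial uptake, had 629.9, 721.6 and 674.4 normalised read counts in untreated and 1518, 1575 and 1531 in VPA-treated libraries. The groups were far apart, and the spread within each was small beside the gap between them. The log2 fold change was 1.19 ± 0.053 (SE), a 2.28-fold increase (adjusted p = 3.71e-14), and it stayed between 1.14 and 1.23 with each library left out. CPT1A spans chromosome 11 from 68754620 to 68844277, and no exon of another annotated gene overlaps its exons.

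CPT1C encodes an isoform of the endoplasmic reticulum that is best known from neurons. It had 131.4, 128.6 and 146.8 normalised read counts in untreated and 194.4, 189.6 and 225.8 in VPA-treated libraries, without overlap. Its log2 fold change was 0.58 ± 0.10 (SE, adjusted p = 3.91e-05). CRAT, carnitine acetyltransferase, buffers acetyl-CoA by moving short acyl groups between coenzyme A and carnitine. It had 439.6, 477.9 and 425.8 normalised read counts in untreated and 681.7, 685.2 and 638.0 in VPA-treated libraries, also without overlap. The log2 fold change of CRAT was 0.58 ± 0.063 (SE, adjusted p = 6.16e-08). Both kept their call with each library left out.

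CPT2, the inner membrane partner of CPT1, rose little, from 837.0 ± 29.6 to 913.4 ± 9.58 normalised read counts (SD, n = 3 each), so that the log2 fold change was 0.13 ± 0.051 (SE). Its adjusted p of 0.038 from the model across all genes was lost in 8 of 14 alternatives, DESeq2 among them, over a range of 0.00027 to 0.244. With 1 library left out the call held only without untreated replicate 1 (adjusted p = 0.023), and without each other library it was between 0.051 and 0.152.

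SLC25A20, the carnitine-acylcarnitine carrier and the shuttle gene with the highest level per kilobase over all 6 libraries, though below CPT2 in VPA-treated cells, had 574.1, 630.6 and 620.9 normalised read counts in untreated and 554.3, 568.8 and 567.2 in VPA-treated libraries. The groups did not overlap, but its log2 fold change of -0.11 ± 0.059 (SE) did not pass (adjusted p = 0.107). It passed without untreated replicate 1, with -0.16 (adjusted p = 0.033), while the other alternatives gave up to 0.772. SLC22A5, the carnitine importer of the cell membrane, had a log2 fold change of -0.051 ± 0.055 (SE). CROT, the peroxisomal octanoyltransferase, had -0.028 with a standard error of 0.078. The sign of these 3 values turned with library totals.

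**Figure D3:**
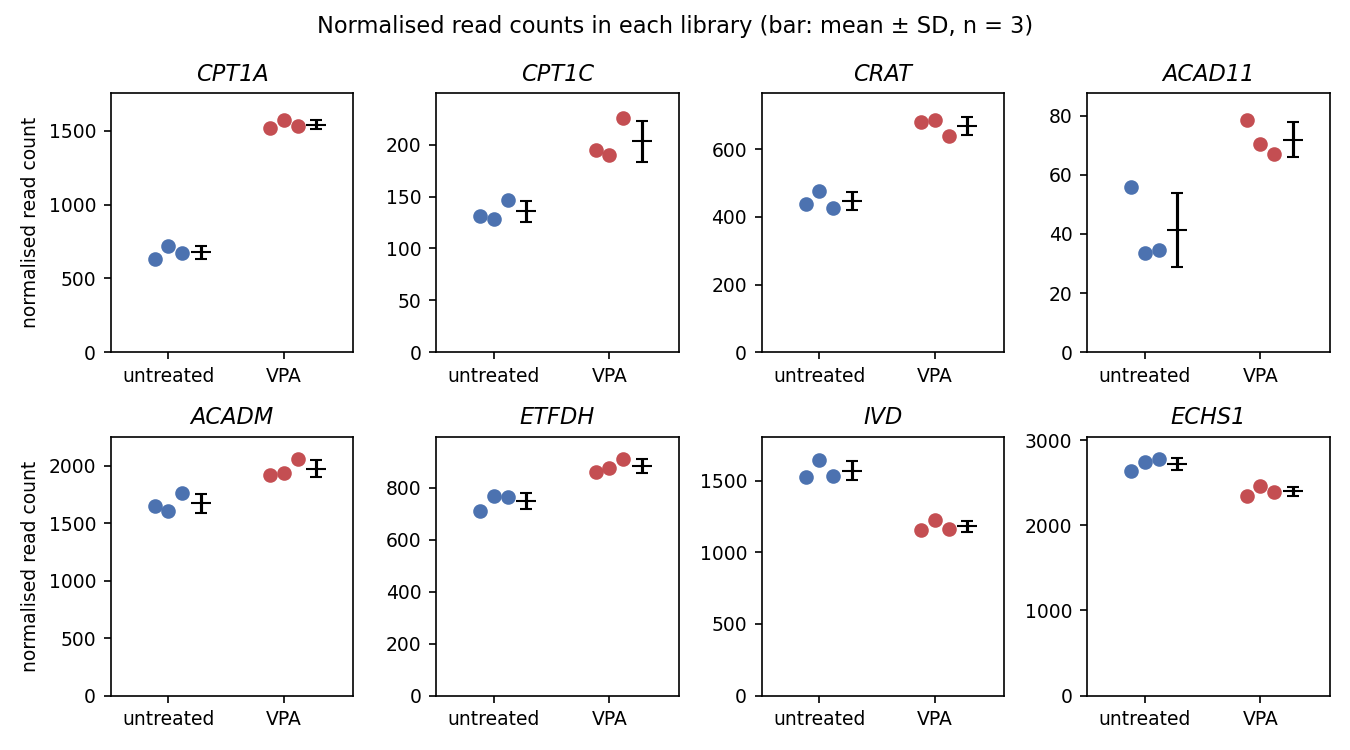
Normalised read counts of 8 members in each of the 3 untreated and 3 VPA-treated libraries, with the mean and SD beside the points and axes that start at 0. CPT1A, CPT1C, CRAT, ACAD11, ACADM and ETFDH are higher and IVD and ECHS1 lower in all VPA-treated libraries, with the widest gap in CPT1A.

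The isoforms of CPT1 were also compared as shares within each library, from counts per kilobase of annotated exons. CPT1A made up 80.7%, 82.7% and 77.7% of the CPT1 genes in untreated and 86.8%, 87.6% and 85.7% in VPA-treated libraries. The means were 80.4 ± 2.50 and 86.7 ± 0.964 percent (SD, n = 3 each), a difference of 6.31 percentage points without overlap (p = 0.1 by a two-sided exact permutation test, the lowest value 3 against 3 can give). CPT1B, the muscle isoform, did not pass the filter, with 2, 4 and 17 counts in untreated and 8, 7 and 2 in VPA-treated cells. A readthrough gene that is also listed, with 0 counts, shares 66.4% of its exon bases on the same strand, and reads there may have been set aside as ambiguous. With CPT1B left out the difference was 5.53 percentage points, and single transcripts as the length of each gene gave 8.10 to 8.24. Fitted without the filter, CPT1B had a log2 fold change of -0.57 (adjusted p = 0.40).

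**Figure D4:**
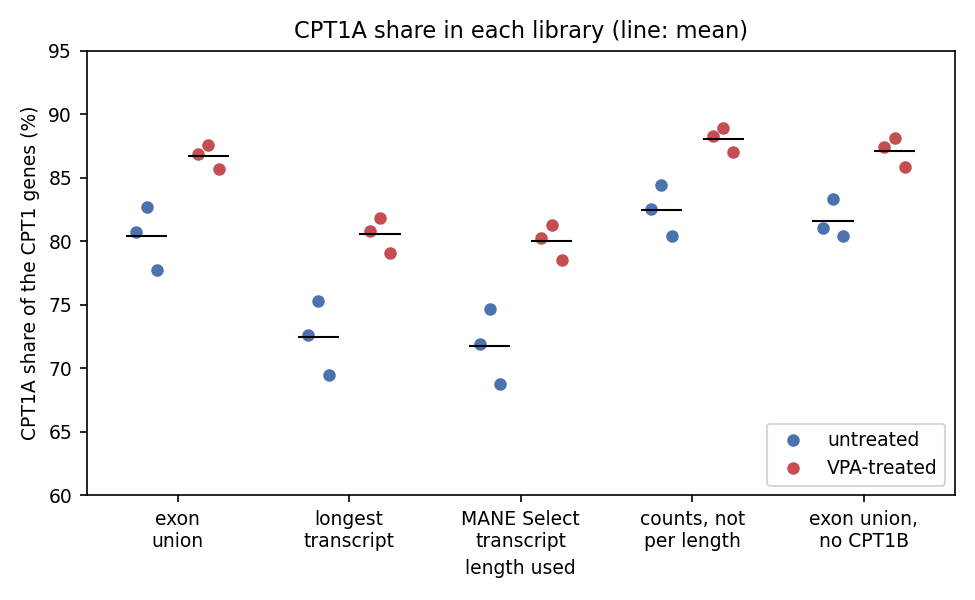
Share of CPT1A among the CPT1 genes in each library, in percent on an axis from 60 to 95, for 4 ways of setting gene length and with CPT1B left out, with a line at each mean. For each of the 5 ways the 3 VPA-treated libraries lie above the 3 untreated ones.

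Of the 10 acyl-CoA dehydrogenases 4 rose, 2 fell and 4 did not pass. The increases were in ACADM and ACADVL, the medium-chain and very long-chain enzymes, and in the less studied ACAD10 and ACAD11. ACADM, the most abundant of them per kilobase, had 1653, 1603 and 1763 normalised read counts in untreated and 1921, 1940 and 2060 in VPA-treated libraries, a log2 fold change of 0.24 ± 0.047 (SE, adjusted p = 0.00016). Its groups did not overlap, though the change was 1.18-fold. ACADVL rose from 1593 ± 45.6 to 1851 ± 88.1 (SD, n = 3 each), so that the log2 fold change was 0.22 ± 0.047 (SE). ACAD10 had a log2 fold change of 0.23 ± 0.065 (SE), past the test in edgeR (adjusted p = 0.0043) and in 13 of 14 alternatives, but not in DESeq2 (0.055).

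ACAD11 had the second largest log2 fold change of the members, 0.80 with a standard error of 0.18 (adjusted p = 0.00056), on 344 counts over the 6 libraries. It had 55.9, 33.5 and 34.6 normalised read counts in untreated and 78.5, 70.3 and 67.0 in VPA-treated libraries. Untreated replicate 1 stood above the other untreated libraries, and without it the log2 fold change was 1.07 and ACAD11 counted as up-regulated.

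The decreases were in IVD and ACAD9. IVD, isovaleryl-CoA dehydrogenase of leucine breakdown, had 1528, 1645 and 1530 normalised read counts in untreated and 1154, 1223 and 1164 in VPA-treated libraries, without overlap. Its log2 fold change was -0.41 ± 0.048 (SE, adjusted p = 2.07e-07), the largest decrease among the members past the test. ACAD9, which also assembles respiratory complex I, decreased by 0.16 on the log2 scale, from 1631 ± 62.5 to 1462 ± 23.2 (SD, n = 3 each), and lost its call with library totals and upper quartile scaling (adjusted p = 0.638 and 0.0908, down to 0.00017 in the other alternatives). ACADL, ACADSB, ACAD8 and ACADS did not pass, with log2 fold changes of 0.17, 0.076, 0.065 and -0.16, the first 3 of them past the test in 1 or 2 of 14 alternatives. ACADS, the short-chain enzyme, passed without untreated replicate 1 (-0.24, adjusted p = 0.048) and without VPA replicate 1 (-0.27, adjusted p = 0.024), against up to 0.851 in other alternatives.

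Among the 8 mitochondrial enzymes that follow the dehydrogenase step, DECR1 rose, ECHS1 and ECI1 fell, and 5 did not pass. DECR1, the dienoyl-CoA reductase that handles unsaturated chains, rose from 309.3 ± 14.2 to 409.4 ± 29.8 normalised read counts (SD, n = 3 each), so that the log2 fold change was 0.40 ± 0.074 (SE, adjusted p = 7.06e-05). ECI1, the enoyl-CoA isomerase that also serves unsaturated chains, fell from 1167 ± 57.8 to 954.3 ± 79.0 (SD, n = 3 each), and had a log2 fold change of -0.29 ± 0.059 (SE, adjusted p = 0.00019). These enzymes of unsaturated chains thus moved in opposite directions. ECHS1, the member with the highest level per kilobase in untreated cells and below HADHA in VPA-treated cells, had 2642, 2743 and 2774 normalised read counts in untreated and 2346, 2456 and 2390 in VPA-treated libraries, without overlap. The log2 fold change of ECHS1 was -0.18 ± 0.041 (SE, adjusted p = 0.00063), and the call was lost with library totals (adjusted p = 0.286, against 0.0198 or less in the other alternatives).

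HADHA and HADHB, the subunits of the trifunctional protein, had log2 fold changes of 0.10 and 0.036 with standard errors of 0.047 each. HADHA, with 5145, 5564 and 5868 normalised read counts in untreated and 5713, 5860 and 6244 in VPA-treated libraries, had the most counts of all members, and its groups overlapped. Its adjusted p was 0.061, and it passed in 6 of 14 alternatives, among them the replicate number as a block (0.0012) and the fits without untreated replicate 3 (0.018) or VPA replicate 1 (0.028), over a range of 0.00018 to 0.337. ACAA2, the thiolase of the last step, had 0.12 with a standard error of 0.064 (adjusted p = 0.126). It passed in 4 of 14 alternatives, among them the block (0.0093) and the fit without untreated replicate 3 (0.032), over a range of 0.0024 to 0.721. HADH had a log2 fold change of 0.057 and ACAT1 of -0.061. ACAT1 had -0.15 (adjusted p = 0.0084) without untreated replicate 1, the 1 alternative of 14 in which it passed, with values up to 0.959 in the others. HADH and HADHB, past the test in 2 and 1 of 14 alternatives, turned to just below 0 without untreated replicate 1.

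The enoyl-CoA hydratase domain gene ECHDC1, which removes the side product ethylmalonyl-CoA, had 1241, 1122 and 1267 normalised read counts in untreated and 984.2, 1075 and 1009 in VPA-treated libraries, all below the untreated ones. It fell by 0.24 on the log2 scale with a standard error of 0.055 (adjusted p = 0.00057), a call lost with library totals only (0.0911). ECHDC2 had 193 counts in total and a log2 fold change of -0.43 ± 0.21 (SE, adjusted p = 0.078). It passed without VPA replicate 1 (-0.63, adjusted p = 0.026), and the other alternatives gave up to 0.271.

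Of the 6 tested peroxisomal genes EHHADH, ACOX3 and HSD17B4 rose and ACAA1 fell. EHHADH, a hydratase and hydroxyacyl dehydrogenase that also handles dicarboxylic acids, rose from 183.6 ± 22.3 to 242.6 ± 21.7 normalised read counts (SD, n = 3 each), so that the log2 fold change was 0.40 ± 0.098 (SE, adjusted p = 0.0013). ACOX3, an oxidase of branched chains, had a log2 fold change of 0.22 ± 0.065 (SE, adjusted p = 0.0050), past the test in 13 of 14 alternatives and not in DESeq2 (0.0706). HSD17B4, the enzyme of the branched-chain and very long-chain route, had 0.15 with a standard error of 0.059 (adjusted p = 0.035), and its groups overlapped. Its call was lost without untreated replicates 1 or 2 and without VPA replicates 2 or 3 (adjusted p of 0.131, 0.111, 0.0711 and 0.179), and in 6 of 14 alternatives in all.

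ACAA1, the peroxisomal thiolase, fell from 1297 ± 67.2 to 1112 ± 14.0 normalised read counts (SD, n = 3 each), so that the log2 fold change was -0.22 ± 0.050 (SE, adjusted p = 0.00052). DLEC1 on the opposite strand shares 19.7% of its exon bases, with 72 counts in total. The call of ACAA1 was lost with library totals (adjusted p = 0.112, against 0.0093 or less in the other alternatives). ECI2, the peroxisomal gene with the highest level per kilobase, had 1814, 2175 and 2165 normalised read counts in untreated and 2084, 2294 and 2214 in VPA-treated libraries, which overlapped. It had a log2 fold change of 0.10 ± 0.060 (SE, adjusted p = 0.162), and passed in 3 of 14 alternatives, among them the replicate number as a block (0.0089), over a range of 0.0023 to 0.841. DECR2 had 210.6 ± 28.3 and 210.9 ± 29.8 (SD, n = 3 each), and a log2 fold change of 0.0019 ± 0.11 (SE). ACOX2, a bile acid oxidase, had 4, 1 and 3 counts in untreated and 5, 0 and 8 in VPA-treated libraries and was not tested. Fitted without the filter its adjusted p was 0.556, and a change was not detectable at this depth.

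Of the 3 genes of electron transfer from acyl-CoA dehydrogenases to the respiratory chain ETFDH rose, ETFB fell and ETFA did not pass. ETFDH, the membrane enzyme that passes the electrons to ubiquinone, rose from 747.6 ± 31.2 to 883.0 ± 26.0 normalised read counts (SD, n = 3 each), so that the log2 fold change was 0.24 ± 0.054 (SE, adjusted p = 0.00057). ETFA, the most abundant of them, had 3747, 4008 and 4134 normalised read counts in untreated and 3718, 3687 and 3947 in VPA-treated libraries. Its log2 fold change of -0.067 ± 0.044 (SE) did not pass (adjusted p = 0.194), but it did with the replicate number as a block (0.045) and without untreated replicate 1 (0.024), against up to 0.983 in other alternatives. ETFB had 1306, 1207 and 1312 in untreated and 1189, 1181 and 1168 in VPA-treated libraries, a log2 fold change of -0.11 ± 0.048 (SE, adjusted p = 0.048). The ETFB call held in 5 of 14 alternatives, with 1 library left out only without untreated replicate 2 (adjusted p = 0.015), and otherwise between 0.062 and 0.129. With library totals ETFA and ETFB lay above 0.

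Among the 20 members called in either direction, 11 kept their call and direction under all 14 alternatives. The 9 higher ones were CPT1A, CPT1C, CRAT, ACADM, ACADVL, ACAD11, DECR1, EHHADH and ETFDH, and the 2 lower ones IVD and ECI1. ECHS1, ECHDC1 and ACAA1 lost their lower calls with library totals only, under which 6713 of all tested genes were higher and 2372 lower. ACAD9 lost its lower call there and with upper quartile scaling, and ACAD10 and ACOX3 lost their higher calls in DESeq2 only. The share of all tested genes that kept their calls was not computed, so the split shows no lean of the members. By role, the median log2 fold change of tested genes was 0.13 in the shuttle, 0.12 in the dehydrogenases and 0.047 in the later mitochondrial steps. It was 0.13 in the peroxisomal genes, -0.067 in electron transfer and -0.34 in the 2 enoyl-CoA hydratase domain genes, against 0.006 over all tested genes.

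Genes next to the pathway were followed in 8 further lists of 95 genes, of which 75 were tested. Of these 30 were higher (40.0%) and 14 lower (18.7%), against the same background of 32.9% and 30.0%, and 8 were up-regulated (10.7% against 12.0%). Each list held 6 to 16 tested genes, and its counts are to be read against that background. Of the 11 genes at 0 in every library 5 lie on chromosome X. The list of fatty acid activation and uptake had 8 of 12 tested genes higher and 2 lower, with a median log2 fold change of 0.63. In it ACSM3, a medium-chain acyl-CoA synthetase, rose from 50.5 ± 9.02 to 137.4 ± 8.04 normalised read counts (SD, n = 3 each), so that the log2 fold change was 1.45 ± 0.14 (SE, adjusted p = 8.04e-09). ACSL3, a long-chain synthetase, fell by 0.31 on the log2 scale with a standard error of 0.047. The list held 4 up-regulated genes in all. Besides ACSM3 these were the long-chain synthetase ACSL6, the transporter SLC27A6 and CD36, named after their values were seen. Their log2 fold changes were 1.14, 1.34 and 2.08, that of CD36 on 46 counts in total.

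In the list of carnitine synthesis and other carnitine carriers, 3 of 6 tested genes were higher and 3 did not pass. The higher ones were listed as carriers, SLC25A29, SLC22A4 and SLC16A9. The synthesis genes ALDH9A1, SHMT1 and SHMT2 had log2 fold changes of 0.016, -0.062 and -0.061 and did not pass. SLC25A29, a mitochondrial carrier related to SLC25A20, rose from 451.2 ± 8.17 to 960.4 ± 29.0 normalised read counts (SD, n = 3 each), so that the log2 fold change was 1.09 ± 0.056 (SE, adjusted p = 3.24e-13). Whether SLC25A29 moves carnitine in these cells was not tested, and its rise does not show a larger carnitine supply. BBOX1, which makes carnitine from its precursor, had 3 counts in total. TMLHE of the same list lies on chromosome X, where every listed gene had 0 counts, so its level could not be read. Malonyl-CoA, made by ACACA and ACACB, blocks CPT1, and AMP-activated kinase (AMPK) restrains its synthesis. In that list 1 of 9 tested genes was higher and 3 lower, led by the AMPK subunits PRKAA2 with a log2 fold change of 0.40 and PRKAB1 with -0.39, while ACACA and ACACB had -0.017 and -0.060 and did not pass.

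Of 6 tested ketone body genes 2 were higher (33.3% against 32.9% of all tested genes), OXCT1 with a log2 fold change of 0.15 among them. The 1 lower gene was ACAT2, which also serves sterol synthesis, with -0.51. DESeq2 called 0 of them higher and 1 lower. Of 7 tested thioesterases, which release fatty acids from coenzyme A, 4 were higher, led by ACOT11 with 0.59, and 3 did not pass. The other peroxisomal genes gave 4 of 10 higher and 2 lower. The largest changes at a mean of at least 50 normalised counts were 0.73 in SLC27A2 and -0.36 in HACL1 of alpha-oxidation. SLC27A2 is a very long-chain synthetase also in the activation list. ABCD2, below that mean with 179 counts in total, was the 1 up-regulated gene of the list, at 1.71 (adjusted p = 3.14e-06), and was named after its values were seen. Branched-chain and odd-chain breakdown gave 6 of 16 higher and 3 lower, with BCKDHB at 0.37 and PCCB at -0.31. Among 10 regulators 3 were higher and 3 lower. PDK4, the kinase that closes pyruvate dehydrogenase and a known target of PPAR factors, had 42.4 ± 9.53 and 117.3 ± 12.8 normalised read counts (SD, n = 3 each), so that the log2 fold change was 1.47 ± 0.16 (SE, adjusted p = 4.59e-08), and NRF1 had -0.29. PPARGC1A and PPARA, a coactivator and a receptor that drive oxidation genes, were the other regulators that rose, with log2 fold changes of 1.20 and 0.64, and were named after their values were seen. The other regulators that fell were ESRRA and NCOR1, with -0.24 and -0.12, and PPARD, PPARGC1B, RXRA and PDK2 did not pass. The list median was -0.025, and 30.0% of its genes were higher and 30.0% lower.

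**Figure D5:**
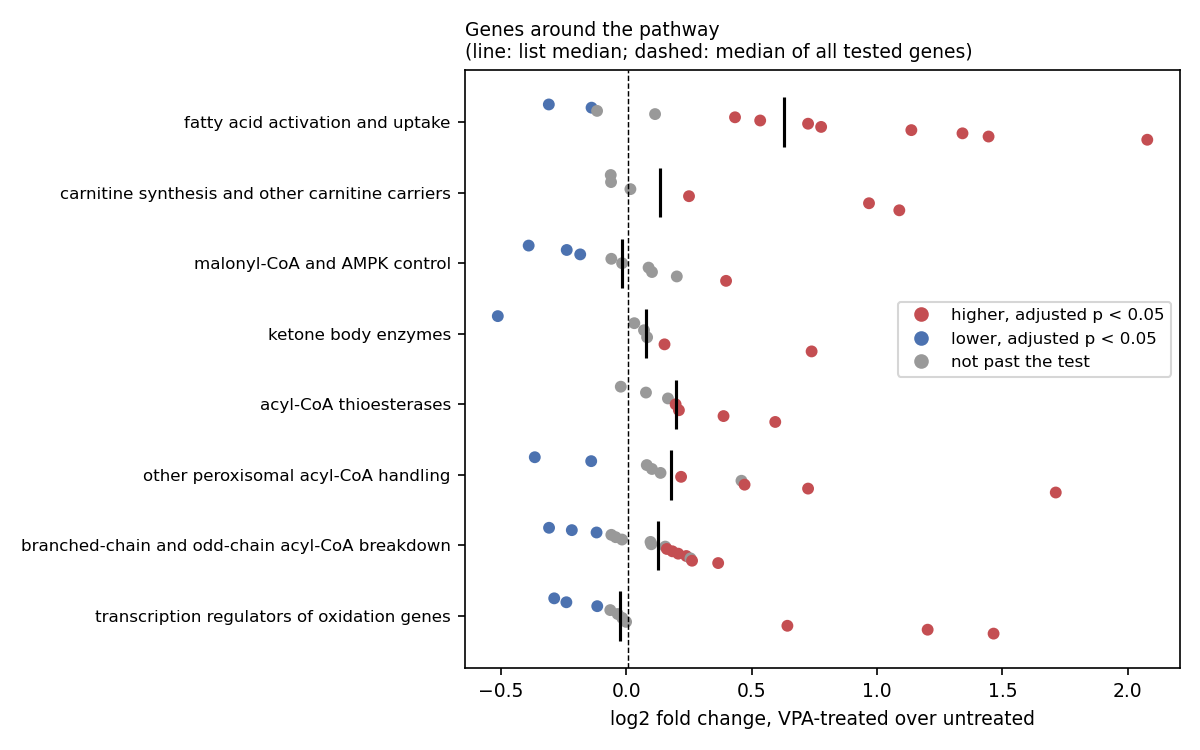
Log2 fold change of each tested gene in the 8 further lists, coloured as for the members, with a line at each list median and a dashed line at the median of all tested genes, 0.006. Fatty acid activation and uptake has the highest median, 0.63, and the other lists have medians between -0.025 and 0.20.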

How the data were processed

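RNA-seq of HEK293T cells was analysed in 3 untreated and 3 VPA-treated libraries. The authors trimmed the reads (SOAPnuke), used hg38 for alignment by STAR (2.7.10b in the submitters' processing notes) and deposited raw read counts per gene from htseq-count (HTSeq 2.0.1 in those notes; the paper's methods give another version). The annotation and strand setting are not given in the sources used here. The 5 summary lines were dropped, in which reads outside genes made 6.80% to 7.69% and ambiguous reads 1.97% to 2.10% of a library.

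The test was that of edgeR 4.0.16 (R 4.3.3) after TMM normalization, filterByExpr (count minimum 10) and a robust quasi-likelihood test, two-sided, with Benjamini-Hochberg adjustment over 15298 genes. Adjusted p-values are from this test unless DESeq2 1.42.0 or an alternative fit is named. The alternatives used another scaling, another filter or none, another prior count, the replicate block or 1 library left out. Normalised read counts are TMM-scaled to the mean library. Standard errors are log2 fold changes divided by the root of F. The script was tested on simulated data. The biological coefficient of variation was 3.83%, and depth differed little between libraries.

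Libraries with the same replicate number deviated together among 10251 well-counted genes (r = 0.445, 0.178 and 0.372), less so over all 15298 (0.126, 0.018 and 0.071), so block values are given where they change a call; the labels give no reason for pairing. Members and lists were chosen with earlier results of these data known. Library values are given for members past the test that changed by 0.5 or more on the log2 scale, for those under the filter and for the most abundant of each role; others, as IVD and ETFB, were added after their values were seen. Of each further list the largest change in each direction past the test with a mean of at least 50 normalised counts is named. Coordinates are from RefSeq on GRCh38.p14, exons and MANE Select transcripts from GENCODE 44 and promoter bases from hg38; motif shares at RefSeq starts were 82.8% and 44.6% for the GC box.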

Additional observations from a re-analysis of the deposited data

How the results depend on the processing

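The scaling mattered most. With library totals 21 members were higher and 2 lower in place of 13 and 7, and the further lists gave 46 higher and 6 lower in place of 30 and 14, or 9 lower with upper quartile scaling. The count of 1 up-regulated member was 1 to 2 with each library left out, the second being ACAD11 without untreated replicate 1; higher members numbered 11 to 14 and lower members 6 to 10. The replicate block gave 16 higher and 8 lower members, and DESeq2 gave 9 and 6. The CPT1A share rose by 4.99 to 7.48 percentage points with each library left out; leaving out CPT1B and using MANE Select lengths were chosen after seeing the data. Over 36 members and 504 comparisons, 29 calls were weaker, 28 stronger and 17 turned direction, none of the last past the test. With library totals these were SLC25A20 (0.021), SLC22A5 (0.080), CROT (0.103), ACAT1 (0.071), ETFA (0.065) and ETFB (0.019); with upper quartile scaling SLC22A5 (0.014), CROT (0.037) and ACAT1 (0.004). DECR2 turned with DESeq2 (-0.023), DESeq2 size factors (-0.012), no filter (-0.020), without untreated replicate 3 (-0.101) and without VPA replicate 1 (-0.121). HADH (-0.009) and HADHB (-0.005) turned without untreated replicate 1, and ACAT1 (0.008) without untreated replicate 3. With each library left out, HADH spanned -0.009 to 0.087, HADHB -0.005 to 0.073, ACAT1 -0.147 to 0.008 and DECR2 -0.121 to 0.093. The median of the members lay above that of all tested genes by 0.065, by 0.010 without untreated replicate 1 and by 0.023 with DESeq2, and below it without the filter (-0.030). DESeq2 and the fit without the filter compared larger sets of genes, 19502 and 26353, whose medians were 0.023 and 0.079. Their gaps are therefore not against the same background as that of the main fit. For scalings the cause is the shift of all genes; for the rest it was not tested. Depth limits CPT1B, ACOX2, ECHDC2 and ACAD11, with 21 to 344 counts each.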
